A study of Mus musculus with 2 samples.

Results

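The cytosolic ribosomal protein genes were taken as every gene whose symbol is Rpl, Rps or Rplp with its number (and, for some, a final a or x), or Rpsa. By this rule 76 of the 55536 annotated genes were members, 46 of the large and 30 of the small ribosomal subunit. RNA of a nuclear fraction was sequenced after depletion of ribosomal RNA from bone marrow derived macrophages (BMDM) of C57BL/6J mice, stimulated for 10 min with Lipid A at 100 ng/ml, the part of lipopolysaccharide that Toll-like receptor 4 binds. The study labels this RNA nucleoplasmic in one field and nuclear in another, and both libraries belong to this 1 group, as biological replicates 1 and 2. The replicates carry 1 donor identifier and it is not stated that they came from separate animals, so their spread may be partly technical. Replicate 1 was made from 1 µg of RNA and replicate 2 from 500 ng. Cells without Lipid A were not analysed here, so the values are levels and not responses.

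Ribosomal proteins join ribosomal RNA in the nucleolus to build the large and the small subunit, and each ribosome holds most of them in a single copy. Their mRNAs are short, abundant and long-lived, and are translated in the cytoplasm, so a nuclear preparation holds new transcripts on their way out together with any cytoplasmic RNA that stays with the nuclei. Many of these genes carry small nucleolar RNAs (snoRNAs), which guide the modification of ribosomal RNA, inside their introns. Their mRNAs typically begin with a run of pyrimidines, the terminal oligopyrimidine (TOP) start, through which growth signals control their translation.

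Replicate 1 held 19153465 expected counts on annotated genes and replicate 2 held 11622346. Expected counts are estimates of the reads of a gene, and TPM (transcripts counted per length, scaled to a fixed total) correct them for length and for the total of the library. The 10 macrophage markers were detected at 1 TPM or more in both libraries, whereas the markers of T and NK cells, B cells, erythroid cells, fibroblasts and endothelium were all below that level in at least 1 library. By a second quantification, which the authors made from the reads with the same annotation, Cd3d, a T cell marker (2.53 and 10.1 TPM), and Pecam1, an endothelial marker (2.45 and 7.18 TPM), were above it in both, whereas the first had Cd3d at 0 and 0.10 TPM and Pecam1 at 0.42 and 0.69 TPM. One of 6 neutrophil markers was detected. Levels are given as mean ± SD over n = 2 libraries unless a library is named. With 1 group there was no contrast to test, and the comparison of the libraries, 1 against 1, has no p-value. In bulk RNA, fewer cells and less RNA per cell cannot be told apart.

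All 76 members stood at 10 TPM or more in both libraries. In replicate 1 their median was 53.9 TPM and in replicate 2 it was 30.04 TPM (42.0 ± 16.9 TPM). Among the detected protein-coding genes ranked by mean level, the lowest member stood at percentile 62.5, the median member at 88.1 and the highest at 98.1. Together the members held 1.52% of the TPM of protein-coding genes in replicate 1 and 0.897% in replicate 2. On the count scale, which does not divide by length, they held 0.369% and 0.257% of the counts of protein-coding genes. The expected counts of a member ranged from 124 to 3249 in replicate 1 and from 25 to 2084 in replicate 2, so the members with the fewest reads are the least precise.

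**Figure D1:**
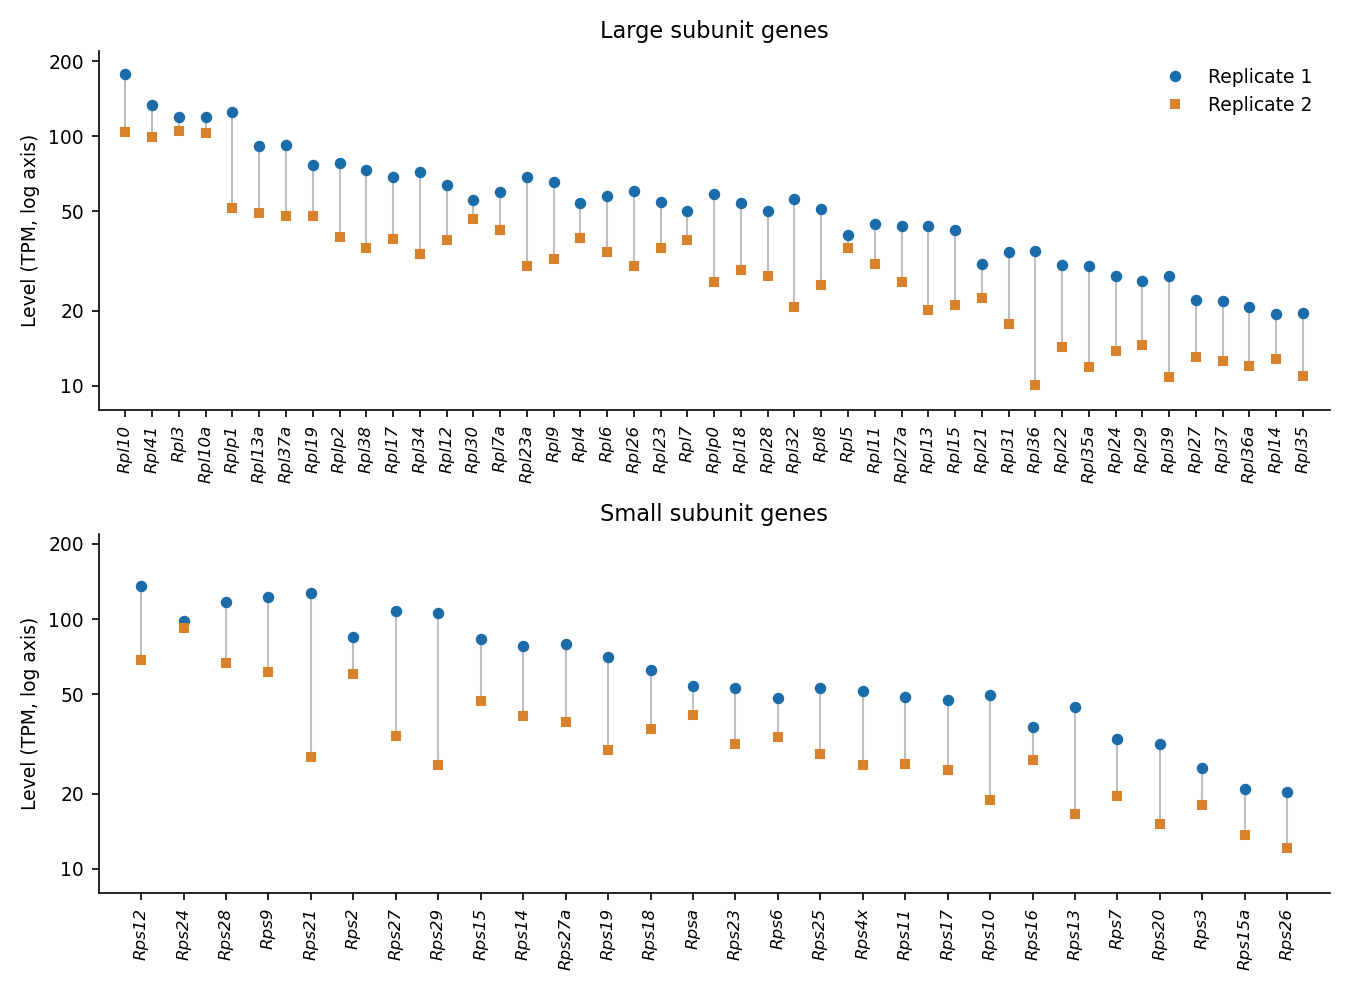
Level of ribosomal protein genes in TPM (log axis) in replicate 1 (circles) and replicate 2 (squares), with large subunit genes above and small subunit genes below, ordered by mean. A grey line joins the libraries of a gene; replicate 1 lies above replicate 2 for every gene shown, and none of them falls under 10 TPM.

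The large subunit genes ran from Rpl10 down to Rpl35. Rpl10, a late-joining protein needed for the last steps of large subunit maturation, had the highest level, with 178 TPM in replicate 1 and 104 TPM in replicate 2. Rpl41, which encodes the shortest protein of the ribosome (a coding length of 75 nucleotides), had 133 and 99.5 TPM. Rpl3, which lies close to the peptidyl transferase centre, had 120 and 105 TPM. Rpl3 and Rpl10a, a protein of the mobile L1 stalk, were nearly level between the libraries, and the 119 and 103 TPM of Rpl10a cannot be ordered against Rpl3. Rplp1 completed the highest large subunit genes with 125 and 51.7 TPM and was 2.41-fold apart between the libraries.

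At the low end of the large subunit, Rpl35, which lies beside the exit tunnel of the nascent protein, had 19.7 TPM in replicate 1 and 10.9 TPM in replicate 2. Rpl14 had 19.5 and 12.8 TPM, and Rpl36a had 20.6 and 12.04 TPM. Rpl37 (21.9 and 12.6 TPM) and Rpl27 (22.0 and 13.0 TPM) stood next to them. In each library these 5 genes differed from each other by less than any of them differed between the libraries, so they have no order among themselves.

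The 3 proteins of the acidic P stalk recruit the translational GTPases to the ribosome, and Rplp1 and Rplp2 are the exception to the single-copy rule, since the stalk holds more than 1 copy of each per Rplp0. Rplp0, the base of the stalk, had 58.8 and 26.0 TPM. Rplp2 had 78.4 and 39.6 TPM. In each library the order was Rplp1, Rplp2 and Rplp0, although the ranges of the libraries overlapped. Rpl5 and Rpl11, which carry the 5S ribosomal RNA into the large subunit and bind the p53 regulator Mdm2, had 40.1 and 35.6 TPM and 44.3 and 30.7 TPM.

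Among small subunit genes Rps12 had the highest mean, with 135 TPM in replicate 1 and 68.4 TPM in replicate 2. Rps24 followed with 98.1 and 92.5 TPM, the closest pair of values of any member relative to its level. Rps28, which lies near the exit of the mRNA channel, had 117 and 66.7 TPM. Rps9, at the entry of that channel, had 123 and 61.2 TPM. Rps21 was the fifth by mean, but its libraries were far apart, with 127 and 28.1 TPM, so its mean of 77.7 ± 70.1 TPM does not fix a rank.

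The lowest small subunit gene was Rps26, a protein of the mRNA exit channel, with 20.3 and 12.2 TPM. Rps15a had 20.9 and 13.6 TPM. Rps3, which forms part of the mRNA entry channel, had 25.4 and 18.0 TPM, and Rps20 had 31.6 and 15.1 TPM. Rpsa, known also as a laminin receptor, was near the middle at 54.0 and 41.3 TPM, as was Rps6, the S6 kinase substrate, at 48.3 and 33.8 TPM. Rps27a, made as a fusion with ubiquitin, had 79.3 and 38.6 TPM.

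The 2 subunits lay close to each other. The median of the log2 TPM of large subunit genes exceeded that of small subunit genes by 0.034 in replicate 1 and 0.098 in replicate 2 (0.066 ± 0.045). The second quantification gave the opposite sign, at -0.047. Within both subunits the genes were uneven: the highest member was 9.23-fold above the lowest by mean TPM, 9.23-fold among large and 6.28-fold among small subunit genes. The SD of log2 mean TPM over members was 0.78, with 0.81 for the large and 0.73 for the small subunit.

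That spread was set beside families whose proteins also enter 1 complex. It was 0.93 over 77 detected mitochondrial ribosomal protein genes, 0.95 over 37 detected proteasome subunit genes and 1.67 over all detected protein-coding genes. The families were not matched in level: the mitochondrial ribosomal protein genes had medians of 6 and 4.8 TPM and the proteasome genes 15.05 and 12.66 TPM. Over protein coding transcripts alone the spread of the members was 1.07. Within 2-fold of the family median lay 56 of 76 members (73.7%), 72.7% of the mitochondrial ribosomal protein genes, 73.0% of the proteasome genes and 44.5% of all detected protein-coding genes. The order of members was largely kept between the libraries, with a Spearman correlation of 0.87 and a Pearson correlation of 0.83 over the 76 genes, which share 2 libraries and are not replicates. Of the 10 highest members in each library 7 were shared, and likewise 7 of the 10 lowest. The Spearman correlation of level with coding length was 0.03 over the same genes.

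Some proteins of the cytosolic ribosome have symbols outside the rule, and 3 of their genes are given for comparison. Fau, which encodes a small subunit protein fused to a ubiquitin-like domain, had 115 and 82.7 TPM. Rps3a1 had 65.8 and 41.4 TPM, and Rack1, the scaffold on the small subunit head, had 52.4 and 36.4 TPM. These levels fell inside the range of the members. Of 10 listed paralogues, which include the annotated pseudogenes Rpl37rt and Rps4l, Rpl36al had the highest mean, at 22.7 and 9.85 TPM. Rpl3l, Rpl10l and Rpl39l were listed at 0 in both libraries. By the second quantification Rpl37rt (15.1 and 16.3 TPM) stood above Rpl36al (8.80 and 5.88 TPM).

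The start of the transcripts was read from RefSeq promoter sequences (build GRCm38.p6), which held 66 entries for 56 members. A TOP-like start was counted where the annotated start base and at least the next 4 bases, on the strand of the gene, were C or T. It was found at 16 of 66 member entries (24.2%), each of a different gene, and at 4.44% of all 32851 promoter entries. The core TATAAA on the strand of the gene, within 50 bases before the start, was found at none of the 66 member entries and at 2.63% of all entries. Annotated starts can lie some bases from the start used in macrophages, so a missing tract says nothing of the transcript. The 6 windows below show 10 bases before the start and 20 from it, with the pyrimidine tract in capitals: the longest tracts that begin with C, the S6 kinase substrate Rps6, and the members with the smallest (Rps24) and the largest (Rps21) difference between the libraries.
Rpl15 (chr14:18270967-18270996, minus strand): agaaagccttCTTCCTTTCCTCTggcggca
Rpl35 (chr2:39005112-39005141, minus strand): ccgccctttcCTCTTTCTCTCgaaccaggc
Rps10 (chr17:27635225-27635254, minus strand): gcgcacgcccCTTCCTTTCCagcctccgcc
Rps6 (chr4:86857348-86857377, minus strand): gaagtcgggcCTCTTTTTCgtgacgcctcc
Rps24 (chr14:24490668-24490697, plus strand): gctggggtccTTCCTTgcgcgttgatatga
Rps21 (chr2:180257369-180257398, plus strand): aggacccgccCTCCTgcccaatagtgctgc
Levels were close with and without the tract: the 16 genes with it had medians of 49.8 and 27.7 TPM, and the other 40 genes of the promoter table had 54.0 and 31.2 TPM.

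The annotation (GENCODE M21, mm10) lists 472 transcripts for the members: 217 protein coding, 171 retained intron, 61 processed transcripts without an open reading frame and 23 marked for nonsense-mediated decay. Protein coding transcripts held 75.9% of the members' TPM in replicate 1 and 64.7% in replicate 2 (70.3 ± 7.90%). Retained intron transcripts, which keep intron sequence of an otherwise spliced gene, held 17.7% and 26.2% (21.9 ± 5.99%). Over all other protein-coding genes the retained share was 19.6% and 19.8%, so on this scale the members lay below them in replicate 1 and above them in replicate 2. On expected counts the members were above them in both libraries, with 23.5% against 14.8% and 33.7% against 15.5%. By the second quantification the members had 22.4% against 22.2% in replicate 1 and 29.3% against 22.1% in replicate 2. Nonsense-mediated decay transcripts held 3.26% and 3.82% of the members' TPM. Reads of unspliced precursors and of a stably retained intron cannot be told apart in these tables.

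**Figure D2:**
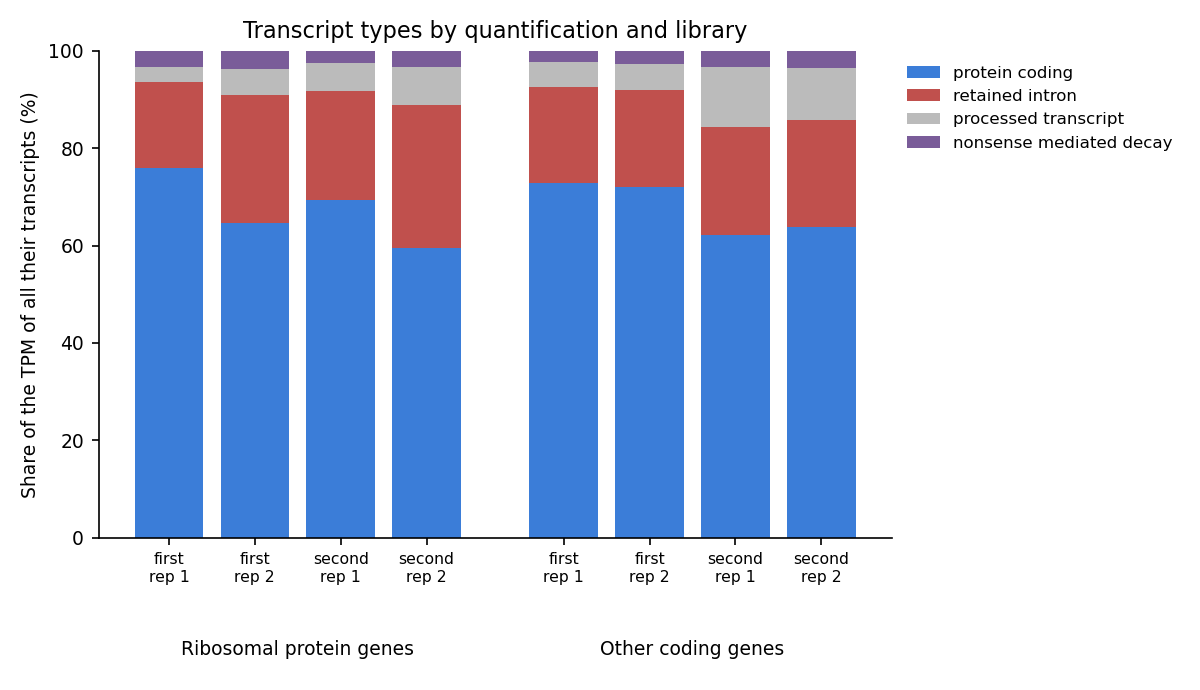
Share of TPM (%) by annotated transcript type, stacked to 100%, in each library (rep 1, rep 2) by the first and second quantification, for the 76 ribosomal protein genes (left) and all other protein-coding genes (right). The retained intron share of the ribosomal protein genes was higher in replicate 2 by both quantifications (26.2% and 29.3%) than in replicate 1 (17.7% and 22.4%).

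Isoform use differed widely between members. Retained intron transcripts took more than 50% of the TPM, averaged over the libraries, in 9 of the 61 members that have such models. The share was highest in Rps16, with 84.8% in replicate 1 and 96.0% in replicate 2, and in Rpl5, with 87.3% and 91.6%. Rpl3 followed with 72.6% and 86.8%, so the third highest gene of the family held only 25.6 and 3.74 TPM of protein coding transcripts. Rps20 had 77.5% and 70.7%, Rpl10a 61.7% and 75.2%, and Rpl37 59.8% and 65.9%. In Rps16 most of the share lay in Rps16-203, with 73.5% of the TPM of the gene over both libraries. In Rpl5 it lay mostly in Rpl5-205, Rpl5-202 and Rpl5-204 (30.1%, 29.1% and 25.7%). None of these transcripts spans a whole intron of the main coding transcript, so the shares of Rps16 and Rpl5 rest mainly on partial models. At the other end Rplp1, Rps15, Rpl38, Rpl17, Rpl32, Rpl36 and Rpl29 have no retained intron model and held 100% of their TPM in protein coding transcripts. The retained share of the 61 members had a Spearman correlation of 0.90 between the libraries and 0.88 between the quantifications.

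Of the 171 retained intron transcripts, 83 span at least 1 whole intron of the main coding transcript, and these held 54.2% and 56.7% of the retained TPM. The other 88 hold no whole intron of it. The most abundant was Rpl3-204, which holds the third intron of Rpl3, 583 nucleotides on chr15:80081032-80081614 of the minus strand, at 45.3 TPM in replicate 1 and 58.3 TPM in replicate 2. Rpl10a-206 holds the third intron of Rpl10a, 326 nucleotides on chr17:28329048-28329373 of the plus strand, at 31.9 and 45.4 TPM. Rpl10-207 holds the second intron of Rpl10, 635 nucleotides on chrX:74271025-74271659 of the plus strand, at 27.6 and 25.8 TPM. For these and the next such transcript without a snoRNA gene, Rpl10-208 (25.1 and 14.8 TPM), the first exon-intron boundary of the retained intron in mm10 is shown, with 10 exon bases in lower case and the first 20 intron bases in capitals.
Rpl3-204 (chr15:80081595-80081624, minus strand): ataagaactgGTAAGAGGCTCTTGGGTTCC
Rpl10a-206 (chr17:28329038-28329067, plus strand): gcaccgtcagGTTGGCACCGCTCTAACCCC
Rpl10-207 (chrX:74271015-74271044, plus strand): ccgcccggtgGTGAGTGCTGAACCCATGCA
Rpl10-208 (chrX:74271709-74271738, plus strand): ggtgtccctgGTAAGTAGTGACAAACTTCG
All 4 introns begin with GT, the usual first bases of an intron.

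Transcripts marked for nonsense-mediated decay took over 10% of the TPM of 6 members in replicate 1 and 7 in replicate 2. Their share was 46.4% and 53.2% in Rpl12 and 48.6% and 33.5% in Rpsa. Rpl13a, where the share was 32.9% and 11.1%, also hosts 4 snoRNA genes. In all, 15 members had less than 50% of their TPM in protein coding transcripts, averaged over the libraries.

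Within the gene bounds of 29 members, on the same strand, lie 56 annotated snoRNA genes, with 5 in Rpl4 and 4 in Rpl13a. Their position in introns or exons was not checked. The retained share of these 29 genes together was 27.5% in replicate 1 and 36.7% in replicate 2, against 11.6% and 18.6% for the 47 members without a snoRNA gene. Retained intron transcripts that overlap a snoRNA gene held 201 and 172 TPM, where all transcripts of the 29 genes held 1797 and 1104 TPM. That was 24.2% and 24.8% of the retained TPM of all members, so most of that total lay in transcripts that do not. The total includes the 47 members without a snoRNA gene, so the part within the 29 genes is higher. In the first quantification only 5 of the snoRNA genes reached 3 expected counts in replicate 1 and 3 in replicate 2. The second quantification gave TPM to some that the first had at 0, such as Snord83b (45.8 and 59.1 TPM) and Gm27326 (38.1 and 29.8 TPM). To others it gave less, such as Snord15b (71.5 and 57.7 TPM, against 1599 and 697 TPM). The larger values of this short RNA rest on 101 and 32.7 expected counts, so they do not show a high abundance. The low counts of most snoRNA genes in the first quantification likewise do not show that these snoRNAs were absent. The part of snoRNA reads in the retained share of their hosts was not tested.

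The libraries differed in these genes. After centring on the median gene (0.10 on the log2 scale, over the 13951 genes whose mean reached 1 TPM), 75 of 76 members had the higher log2(TPM + 1) in replicate 1, where the same holds for 50% of all genes. The median member difference was 0.73 on that scale, which understates the change of low genes. A difference of more than 1.5-fold was reached by 54 members (71.1%) against 7.76% of all genes, and more than 2-fold by 14 members against 2.87%. No member was more than 1.5-fold higher in replicate 2, against 4.84% of all genes. The authors also deposited an interval around the posterior mean TPM, which can differ from the TPM. Without centring, the interval of replicate 1 lay wholly above that of replicate 2 for 71 members, against 16.8% of all genes.

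**Figure D3:**
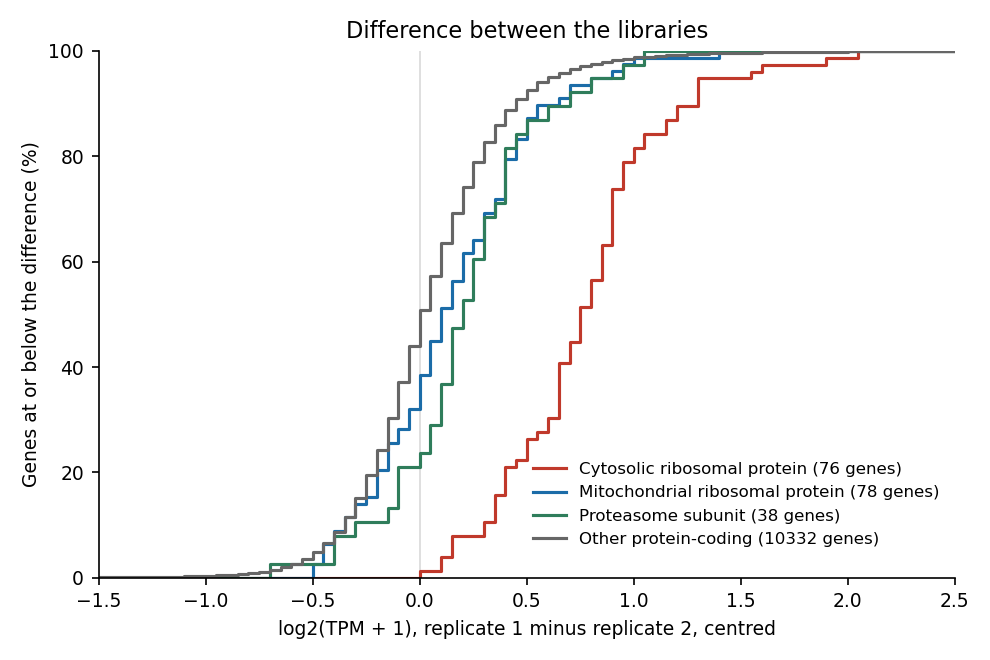
Cumulative share of genes (%) by the difference in log2(TPM + 1) between replicate 1 and replicate 2, centred on the median gene, for 76 cytosolic ribosomal protein, 78 mitochondrial ribosomal protein, 38 proteasome and 10332 other protein-coding genes. The cytosolic ribosomal protein genes lie to the right of the others, with a median of 0.73 against 0.08, 0.17 and -0.01.

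Rps21 was farthest apart, at 127 against 28.1 TPM (2.04 on the centred log2 scale), and its deposited intervals were 111 to 133 and 21.4 to 33.4 TPM. Rps29, a zinc-binding small subunit protein, had 106 and 26.1 TPM (1.88), Rpl36 had 34.7 and 10.1 TPM (1.58), Rps27 had 108 and 34.0 TPM (1.53) and Rpl32 had 56.2 and 20.8 TPM (1.29). In replicate 2 these values rest on 75 counts for Rps21, 70 for Rps29 and 25 for Rpl36. The Rps29 value is uncertain, since its processed pseudogene Gm14303, with an identical coding sequence, was listed at 44.0 TPM in replicate 1 and at 0 in replicate 2. The same doubt holds for Rps27, whose 4 near-identical copies, the best at 100% identity, summed to 33.7 and 7.63 TPM. At the other end Rps24 was the only member with a negative centred difference (-0.02), with intervals of 85.6 to 102 and 76.7 to 95.5 TPM that overlap. Rpl5 (0.07) and Rpl3 (0.09) were nearest to it.

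The difference was larger for protein coding than for retained intron transcripts. The TPM of protein coding transcripts, summed over members, was 3558 in replicate 1 and 1712 in replicate 2, a ratio of 2.08, whereas the retained intron transcripts had 830 and 692 TPM, a ratio of 1.20. In 59 members both types had a mean of at least 1 TPM. There the median centred difference was 0.87 for protein coding and 0.18 for retained intron transcripts, and the coding difference was the larger in 51 of the 59 (86.4%). Over other protein-coding genes with both types it was the larger in 53.0%, with medians of -0.003 for protein coding and -0.05 for retained intron transcripts. By the second quantification it was the larger in 52 of 59 members (88.1%) and 46.7% of the other genes. Rpl3 was the plainest case, with 25.6 against 3.74 TPM of protein coding transcripts (2.39 on the centred scale) and 87.0 against 90.9 TPM of retained intron transcripts (-0.16). Rps20 went the other way, with 0.48 for protein coding and 1.03 for retained intron transcripts. The added 1 TPM shrinks a difference more at low levels, and in most members the retained intron transcripts had the lower level. The part of this in the differences per gene was not tested.

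**Figure D4:**
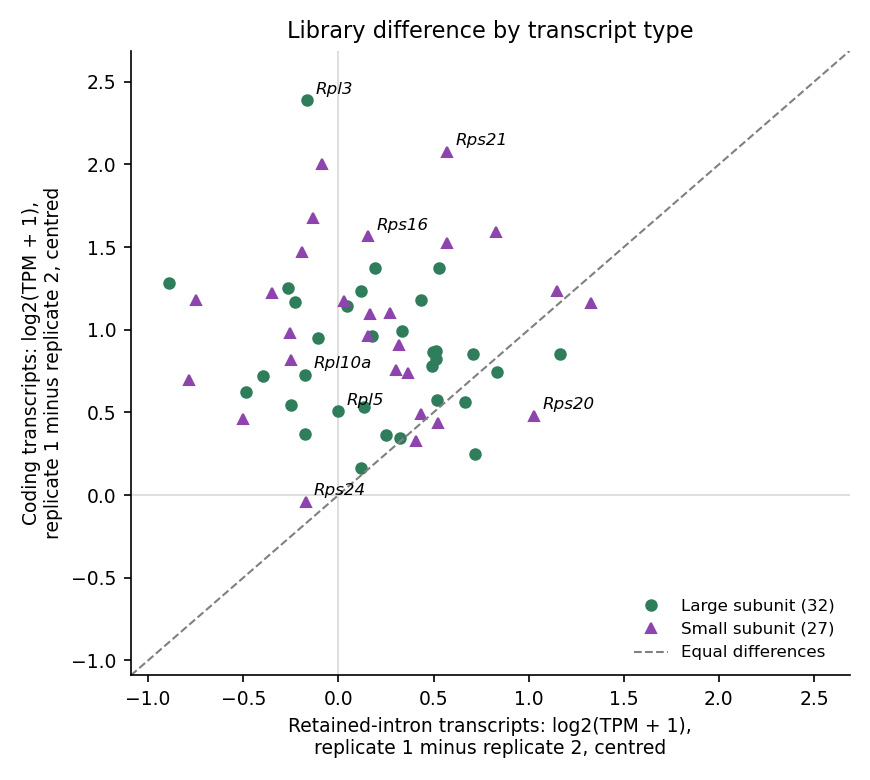
Difference in log2(TPM + 1) between replicate 1 and replicate 2, centred, of the protein coding transcripts (vertical axis) against that of the retained intron transcripts (horizontal axis) of 59 ribosomal protein genes, with the dashed line at equal differences. Points of 51 genes lie above the line, Rpl3 farthest, and Rps20 lies below it.

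Across members the difference was larger in genes with short coding sequences. It had a median of 0.83 in the 25 shortest, 0.71 in the 25 of middle length and 0.60 in the 26 longest, with a Spearman correlation with coding length of -0.37 (76 genes, which share both libraries). Other protein-coding genes also differed with transcript length, but less: their median was 0.13 where the most abundant coding transcript was under 500 nucleotides and -0.07 where it was 4000 or more. The 17 members under 500 nucleotides had 0.91 and the 14 members of 1000 to 2000 had 0.48. Its Spearman correlation with the level was -0.05. In the first quantification the length subtracted from a long transcript to give its effective length was 227 nucleotides in replicate 1 and 213 in replicate 2. In the second quantification it was 237 and 175 nucleotides, so the libraries lay farther apart there. The part of these lengths in the difference was not tested. On counts scaled by TMM, which involve no length, the median difference was 0.68 and 73 members were higher in replicate 1. The difference was lower where the retained share was higher (Spearman -0.33, 61 members), but for protein coding transcripts alone that relation was 0.05.

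Genes with which ribosomal protein genes are usually grouped were read from lists. The 21 matched other genes with TOP mRNAs, such as the elongation factors Eef1a1 (495 and 388 TPM) and Eef2 (101 and 62.6 TPM), had a median centred difference of 0.32, with 2 above 1.5-fold and 1 below. Over all genes 7.76% were above and 4.84% below 1.5-fold, which the counts of each list are to be read against. Pabpc1, the poly(A)-binding protein, had the lower level in replicate 1 (97.1 and 146 TPM). Of 82 ribosome biogenesis genes, whose proteins assemble the subunits in the nucleolus, 1 was above and 4 were below 1.5-fold, with a median of -0.11. Of 23 regulators of TOP mRNAs and ribosomes, such as Larp1 (25.6 and 21.2 TPM), none passed 1.5-fold in either direction, with a median of -0.11. Among 12 abundant mRNAs of mainly cytoplasmic location 6 were above 1.5-fold with a median of 0.63, including Ftl1 (1521 and 622 TPM) and Fth1 (1496 and 776 TPM), while 8 nuclear RNAs had a median of -0.09 (-0.25 by the second quantification). Eef1a1 and Tpt1 are in both the TOP and the cytoplasmic list. The cytoplasmic mRNAs were higher in replicate 1 for 11 of 12, with a summed level of 6117 TPM against 3663 TPM. The summed level of the nuclear list went the other way, at 21928 TPM against 32716 TPM, most of it Malat1 (19912 and 30438 TPM, -0.71), the one of them past 1.5-fold, with Neat1 at -0.34. Macrophage markers were higher in replicate 1 for 8 of 10, with 5 past 1.5-fold and a median of 0.51, and their summed level was 3732 TPM against 2289 TPM. By the second quantification the medians were 0.15 for the TOP list, 0.50 for the cytoplasmic mRNAs and 0.43 for the macrophage markers. They were -0.05 for ribosome biogenesis and -0.14 for the regulators. Of the cytoplasmic mRNAs, Actb (-0.46), Lgals3 (-0.07) and Pkm (-0.05) were then lower in replicate 1 and the others higher. The mitochondrially encoded share of TPM was 5.60% against 7.03%. These levels, the RNA input and the depth of the libraries move with the member difference, and their part in it was not tested.

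Near-identical copies limit how far a member's level can be trusted. For 70 of 76 members at least 1 other gene matched 90% or more of the coding sequence at 95% identity or more, and 20 had a copy with an identical coding sequence. There were 542 such genes, 518 of them pseudogenes, with a median of 5 per member. Rpl21 had the most, 56, followed by Rpl7a with 31 and Rpl29 with 27. The other 6 had none, with Rpl8, Rpl28, Rpl31, Rps3 and Rps10 among them. In the first quantification the summed TPM of the copies, which is not part of that of the members, equalled 14.7% of the latter in replicate 1 and 16.5% in replicate 2. By the second quantification the ratio was 23.0% and 24.4%.

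The 294 pseudogenes that are named after a ribosomal protein held TPM equal to 5.24 ± 0.65% of that of the members. Of these, 33 reached 1 TPM in both libraries. The highest were Rpl31-ps8 (13.9 and 14.3 TPM), Rpl36-ps2 (16.7 and 10.7 TPM) and Rpl26-ps4 (13.0 and 9.21 TPM). Summing each member with its near-identical copies left 75 members higher in replicate 1, with a median difference of 0.74 and 48 past 1.5-fold, an alternative chosen after seeing the data.

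**Figure D5:**
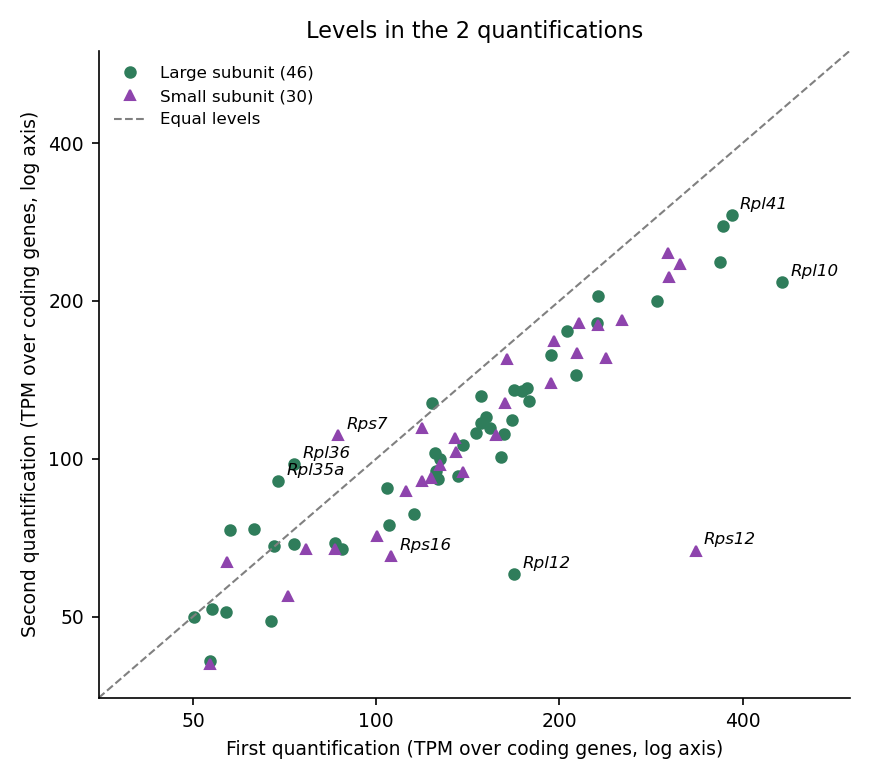
Mean level of each ribosomal protein gene in TPM rescaled to protein-coding genes, by the first (horizontal) and second (vertical) quantification, both on log axes, with the dashed line at equal levels. Most genes lie a little under the line; Rps12, Rpl12 and Rpl10 lie far under it, and Rps7, Rpl35a and Rpl36 above it.

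The second quantification gave lower levels to most members. With each table rescaled to its protein-coding genes, the median member stood at -0.38 on the log2 scale relative to the first, and the median of other protein-coding genes at 0.02. Rps12 was farthest, at -2.31, followed by Rpl12 (-1.47), Rpl10 (-1.09), Rps16 (-0.69) and Rpl9 (-0.66). For the first 3 a copy with an identical coding sequence had the higher TPM in the second quantification, here without rescaling. Rps12-ps3 was given 43.3 and 15.0 TPM where the first quantification had 0.55 and 0.00. Gm10275, a copy of Rpl12, was given 31.3 and 30.6 TPM where it had 5.61 and 2.62. Rpl10-ps3 was given 26.2 and 14.5 TPM where it had 2.47 and 6.17. The part of these copies in the lower member levels was not tested. The members farthest above the first quantification were Rpl36 (0.41), Rpl35a (0.39), Rps7 (0.35), Rpl27 (0.34) and Rpl39 (0.22). In the second quantification 74 members were higher in replicate 1 after centring, with Rpl10a and Rpl5 the exceptions. Its median gene stood at -0.37, and without centring 54 were higher and 8 were past 1.5-fold.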

How the data were processed

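Members, lists and comparisons were chosen with earlier results of these data known. Per the text deposited beside the files, the authors made expected counts and TPM from transcriptome alignments (mm10, GENCODE M21), and a second quantification from the reads. Programs and strand handling are not given in the sources used here. Expected counts, as the authors deposited them, need not be whole and were rounded for TMM (edgeR 4.0.16) and DESeq2 1.42.0 size factors. TPM was used as deposited, scaled per length and to a fixed total over all entries. The interval bounds, a signal that the authors deposited around the posterior mean TPM, have no stated level. Effective lengths are the deposited ones. Entries that name no annotated gene (1.18% and 0.405% of counts) were left out, and 0 columns belonged to other samples.

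Differences used log2(TPM + 1), centred on the median of genes whose mean reached 1 TPM, and the function was tested on simulated data. Detection required 1 TPM in both libraries. Transcript types, introns and snoRNA genes came from GENCODE M21, copies from blastn 2.17.0 with the main coding sequence, and starts from RefSeq. Named genes were the 5 highest and lowest of each subunit, the P stalk and Rpsa, the 5 largest and 3 smallest library differences, the 6 highest retained shares, the 5 farthest apart between quantifications in each direction, and the highest 3 pseudogenes, with list examples by level. Some genes that this rule allows are not reported here. Other members were named for their role, isoforms, copies or start after their values were seen. Alternatives were other units, filters, pseudocounts, scalings, the second quantification and each library alone. Python 3.11.15, pandas 2.3.3 and R 4.3.3 were used.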

Additional observations from a re-analysis of the deposited data

How the results depend on the processing

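With 2 libraries of 1 group, no result carries a test. Detection was 76 members in every alternative run, and the count at 10 TPM was 70 to 76. With centring or count scaling, the members higher in replicate 1 numbered 73 to 76 and those past 1.5-fold 42 to 57. By the second quantification without centring, chosen after seeing the data, they numbered 54 and 8, with a median difference of 0.23. The larger coding difference was found in 51 and, by the second quantification, 52 members. By the second quantification the median member level was 21.7 TPM, the spread 0.67, the gap between subunits -0.047, the ratio of pseudogenes to members 8.61% and the library difference 0.61. Rescaling to protein-coding genes set the median level at 138 TPM. The spread was 1.07 over protein coding transcripts alone, and 0.77 to 0.84 with 1 library left out. On expected counts the retained share was 28.6%, the share of protein-coding genes 0.313% and the pseudogene ratio 2.64%. Posterior mean TPM gave a pseudogene ratio of 8.70% and a library difference of 0.80. The library difference was 0.74 with a pseudocount of 0.1 TPM, 0.83 with no filter on the centring genes, 0.75 with a mean of 10 TPM, 0.68 by TMM or DESeq2 size factors and 0.74 with copies added. With 1 library left out, the median level was 30.04 to 53.9 TPM, the gap between subunits 0.034 to 0.098, the retained share 17.7% to 26.2%, the coding share 64.7% to 75.9%, the share of protein-coding TPM 0.897% to 1.52% and the pseudogene ratio 4.78% to 5.70%. The cause of these shifts was not tested. Members with few counts, such as Rpl36 with 25 in replicate 2, are limited by depth.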
